A study of Homo sapiens with 10 samples.

Results

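The transcriptome of THP-1 macrophages treated with quercetin was compared with that of solvent-treated cells on 5 of the 10 arrays of the series, chosen by their treatment label. THP-1 is a cell line from a human monocytic leukaemia, and every group in the series was made from it. The cells were first turned into macrophages with PMA, a phorbol ester that activates protein kinase C, for 24 h, so that the control cells carry the PMA treatment too. They then received DMSO, punicalagin, myricetin or quercetin for another 24 h. DMSO is the solvent control and was run on cells of passages 6, 7 and 8 (n = 3 arrays). Quercetin was run on cells of passages 7 and 8 (n = 2), as was myricetin (n = 2), and punicalagin on passages 6, 7 and 8 (n = 3). The labels give no dose for any compound. They call the arrays of a group biological replicates and do not say whether these came from separate flasks of a passage. Passage 6 has no quercetin array, so every difference is given for all 3 DMSO arrays and, where it bears on a result, for passages 7 and 8 alone. THP-1 is a single tumour line, and cells driven to a macrophage form by PMA are a model of macrophages and not primary cells.

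Quercetin is a plant flavonol. Flavonols are known as ligands of the aryl hydrocarbon receptor, a transcription factor that binds planar aromatic molecules, moves to the nucleus and switches on enzymes such as CYP1A1 and CYP1B1 and its own repressors. They are also known as antioxidants and as inhibitors of several kinases. Macrophages take up modified lipoproteins through scavenger receptors such as MSR1 and CD36, store the lipid in droplets and export cholesterol under the control of the nuclear receptors LXR and PPARG. They also reshape the tissue around them with secreted matrix metalloproteinases, called MMPs. These are the functions by which the genes are ordered here.

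Levels are log2 intensities, on which a difference of 1 is a 2-fold change, and each gene is represented by 1 transcript cluster of the array. A level says how bright a cluster is and is not compared between genes. The medians of the 10 arrays lay between 5.14 and 5.25. Macrophage character was checked with 18 markers, of which 16 were above the array median in all 5 arrays. CD68, a lysosomal membrane protein of macrophages, had a level of 11.23 and 11.39 with quercetin and of 9.95 to 10.63 with DMSO. MRC1, the mannose receptor, was at 2.74 to 3.46 on the 5 arrays and thus below the median. The 6 B-cell markers were almost all dim, with 5 below the median in all 5 arrays, as were 9 of 12 T- and NK-cell markers. The 2 quercetin arrays had the highest correlation of any pair (Pearson's r = 0.992 over all clusters). The median absolute difference between passages 7 and 8 was 0.119 with quercetin, 0.139 with myricetin, 0.219 with punicalagin and 0.158 with DMSO. The DMSO array of passage 6 stood apart, with a score of -75.62 on the first principal component against 1.58 to 28.87 for the other 9 arrays. The quercetin arrays were set off along the third component, which held 17.85% of the variance, at -44.53 and -43.39 against -1.02 to 27.93. In bulk samples such as these, fewer cells of a type and less RNA per cell cannot be told apart.

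At the threshold used, more genes rose than fell with quercetin, although over all genes the change was above 0 in 43.6%. Of 18417 genes, 538 rose and 199 fell at an adjusted p under 0.05 in limma (2.92% and 1.08% of all genes). The counts of each list below are to be read against these shares. The rise was at least 2-fold in 314 genes and at least 4-fold in 66, and the fall at least 2-fold in 66. The median change over all genes was -0.03 on the log2 scale, with changes from -2.45 for CYP1B1 to 6.96 for FABP4. All 737 genes had the same sign in the passage 7 pair and in the passage 8 pair, and in none of them did the quercetin and DMSO values overlap. The genes were called by p on these same arrays, which favours both traits, and the shares over all genes were not counted. With passages 7 and 8 only, 772 genes were higher and 639 lower (4.19% and 3.47%). Of the genes called with all arrays, 520 of the rises and 183 of the falls were also called there. With passage as a block in the 10-array fit, 565 genes were higher and 329 lower. The DMSO array of passage 6 was the lowest of its group in 58.8% of the genes that fell against 34.6% of all genes, and it was the highest in 45.0% of those that rose against 44.9%.

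**Figure D1:**
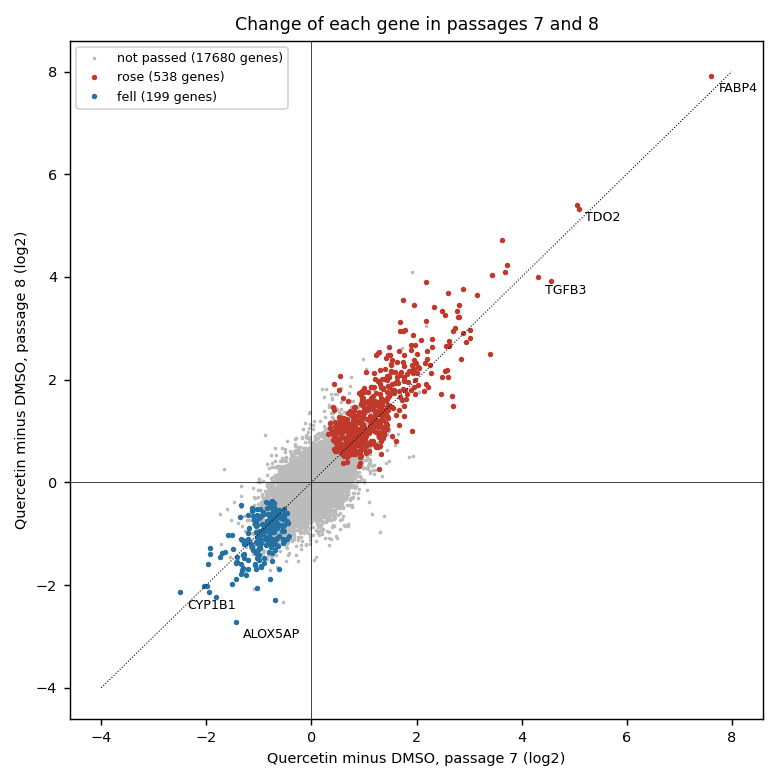
Quercetin minus DMSO (log2) of each of 18417 genes in the passage 7 pair (x axis) and the passage 8 pair (y axis), with the 538 genes that rose in red, the 199 that fell in blue and the others in grey; the dotted line marks equal change. All coloured points lie in the lower left or the upper right part of the plot, and FABP4, with a change of 6.96 over all arrays, lies farthest out.

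The largest rise was that of FABP4, a fatty acid-binding protein of adipocytes and macrophages. With DMSO its level was 5.22 at passage 6, 2.90 at passage 7 and 2.73 at passage 8, and with quercetin it was 10.51 at passage 7 and 10.64 at passage 8. Values of other genes are given in the same order. The gap between the groups was wider than the spread within either, and the DMSO array of passage 6 lay well above the other two. The change in log2 was 6.96 (SE 0.55, adjusted p = 5.06e-05 in limma) with all arrays and 7.76 for passages 7 and 8. Since the DMSO arrays of passages 7 and 8 lay below the lower quartile of their intensities, its fold change is uncertain. TDO2, which opens the ring of tryptophan in the first step of the kynurenine pathway, went from 5.62, 4.17 and 3.77 to 9.23 and 9.18, a change of 4.69 (SE 0.48, adjusted p = 0.000255). Of the 12 tryptophan and kynurenine enzymes measured, TDO2 was the single member that passed the test. IDO1, which carries out the same reaction, was dim on all 5 arrays, with levels of 2.73 to 3.23. CD84, a receptor of the SLAM family that binds itself on neighbouring leukocytes, rose from 4.17, 4.19 and 3.99 to 7.87 and 8.09. RASGRP3, an activator of RAS and RAP proteins that binds diacylglycerol and phorbol esters, rose by 3.31 (SE 0.21, adjusted p = 1.45e-05). CD226, an adhesion receptor of the immunoglobulin superfamily, rose by 3.05, and SLC11A1, the divalent metal transporter of phagosomes, by 2.94. CYP19A1, the aromatase that makes oestrogens from androgens, rose from 5.24, 4.71 and 4.02 to 7.52 and 7.47. Of the 15 genes with the largest rise, 14 had a wider range over the 3 DMSO arrays than between the 2 quercetin arrays. This is not particular to them, since the median SD over all genes was 0.19 with DMSO and 0.08 with quercetin. A range over 3 arrays is also apt to exceed one over 2.

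**Figure D2:**
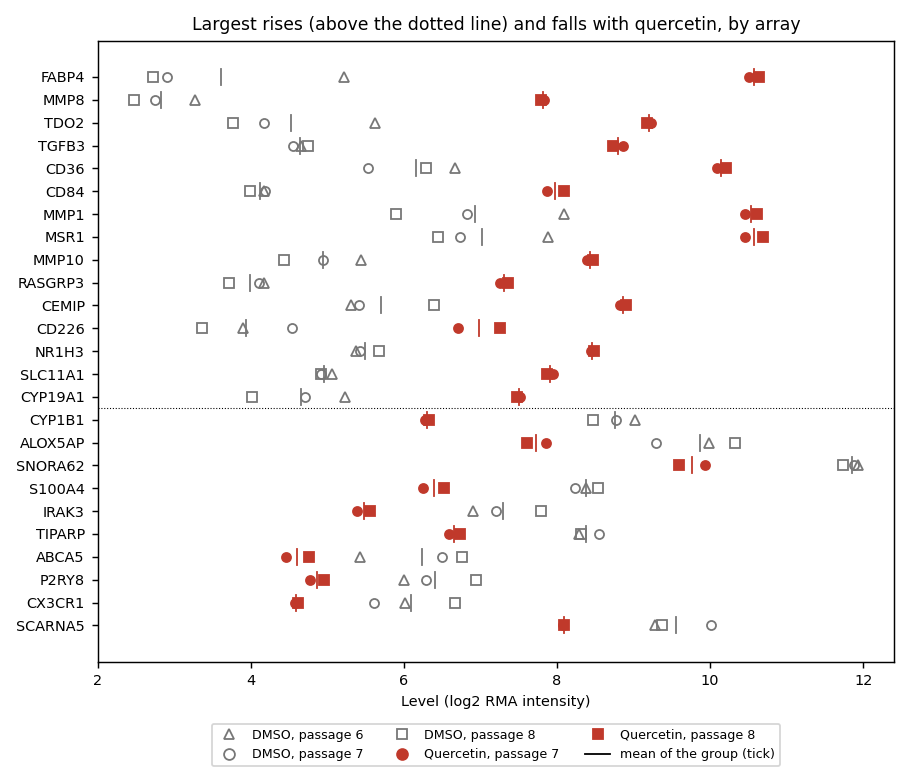
Levels (log2 RMA intensity, x axis) of the 15 genes with the largest rise and, below the dotted line, the 10 with the largest fall, in the 3 DMSO arrays (open grey) and the 2 quercetin arrays (filled red), with the shape giving the passage and a tick at each group mean. In all 25 genes, chosen for their change on these arrays, the groups do not overlap, and in FABP4 and TDO2 the DMSO array of passage 6 lies above the others.

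The largest fall among all genes was that of CYP1B1, a cytochrome P450 induced through the aryl hydrocarbon receptor. Its level was 9.01, 8.77 and 8.47 with DMSO and 6.27 and 6.33 with quercetin. The change was -2.45 (SE 0.18, adjusted p = 3.23e-05 in limma), which is 5.47-fold lower. TIPARP, an ADP-ribosyltransferase that is induced by the receptor and represses it, fell too, from 8.29, 8.55 and 8.31 to 6.59 and 6.73 (change -1.72, SE 0.20, adjusted p = 0.000578). Both were lower in either quercetin array than in any DMSO array, and both calls were kept whichever array was left out. Of the 10 genes of the receptor and its targets that were measured, 2 fell and none rose, with a median change of -0.15. CYP1A1, the target most often used to read the receptor, was dim, at 3.51 and 3.53 with quercetin and 3.36 to 4.16 with DMSO, and its change of -0.14 did not pass (adjusted p = 0.866). The receptor AHR itself had a change of -0.11 and its partner ARNT one of -0.17, and neither passed. NQO1, a quinone reductase under both this receptor and NRF2, had a change of -0.63 (adjusted p = 0.234).

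The 250 bases upstream of the first TIPARP start site are shown because the receptor is known to bind the core GCGTG. The sequence is that of RefSeq (GRCh38.p14), chr3:156674340-156674589 on the plus strand, the first of 3 TIPARP windows in the table used. Capitals mark the core, which here reads CACGC because it lies on the opposite strand.
TIPARP: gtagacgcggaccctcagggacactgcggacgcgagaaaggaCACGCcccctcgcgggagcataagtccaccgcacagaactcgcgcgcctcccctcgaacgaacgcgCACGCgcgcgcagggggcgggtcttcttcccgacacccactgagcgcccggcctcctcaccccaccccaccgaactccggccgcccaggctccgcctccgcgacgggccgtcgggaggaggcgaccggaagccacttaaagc
The 2 matches start 208 and 142 bases before the start site. The core was searched on both strands and is common, being held by 32.2% of all 35116 windows of this length. By gene it was in a window of 43.7% of the genes that fell, 48.3% of those that rose and 46.4% of all measured genes. No window for CYP1B1 was used here.

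Matrix-degrading enzymes and their inhibitors held more rises than any other list. Of 22 genes measured, 12 rose (54.55% against 2.92% of all genes) and none fell. The median change was 1.09 against -0.03 for all genes. Between 8 and 13 rose when any 1 array was left out, and 8 is the count without the quercetin array of passage 8. MMP8, the collagenase known from neutrophils, had levels of 3.26, 2.75 and 2.47 with DMSO, all below the lower quartile of their arrays, and of 7.83 and 7.79 with quercetin. The difference was 4.99 (SE 0.24, adjusted p = 1.34e-06 in limma), and since the DMSO levels are near the dim end of the scale its size is uncertain, as it is for MMP7, whose DMSO arrays were dim too. Neutrophils were checked with 8 markers, none of which passed the test. MMP1, the interstitial collagenase, rose from 8.09, 6.82 and 5.89 to 10.46 and 10.61, a change of 3.60 (SE 0.45, adjusted p = 0.000884). MMP10, stromelysin 2, rose from 5.44, 4.95 and 4.43 to 8.39 and 8.47 (change 3.49, SE 0.23, adjusted p = 1.52e-05). In all of these the DMSO array of passage 6 was the highest of its group, and the quercetin arrays lay close together well above it. The related stromelysin MMP3 changed by 2.49, MMP19 by 2.57, the gelatinase MMP9 by 1.85 and matrilysin MMP7 by 1.75, and all of them rose. MMP9 was the least certain of these (adjusted p = 0.0394), with DMSO levels spread from 8.30 to 10.42. The protease inhibitors TIMP3 (2.03) and SERPINE2 (2.60) rose as well, as did urokinase PLAU (1.25), ADAM9 (0.93) and ADAMDEC1 (1.98). Of the members that did not pass, the membrane-bound MMP14 had a level of 11.27 to 11.60 on all 5 arrays and a change of 0.12. TIMP1 had a change of 0.31, MMP2 one of 0.08 and the macrophage elastase MMP12, at 2.92 to 3.64, one of 0.41.

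The windows upstream of MMP10 and MMP7 are shown because both genes rose and both windows hold the letters TGANTCA, the site of AP-1 (FOS and JUN) factors. They are from RefSeq (GRCh38.p14), chr11:102780629-102780878 for MMP10 and chr11:102530748-102530997 for MMP7, both on the minus strand, and capitals mark the match.
MMP10: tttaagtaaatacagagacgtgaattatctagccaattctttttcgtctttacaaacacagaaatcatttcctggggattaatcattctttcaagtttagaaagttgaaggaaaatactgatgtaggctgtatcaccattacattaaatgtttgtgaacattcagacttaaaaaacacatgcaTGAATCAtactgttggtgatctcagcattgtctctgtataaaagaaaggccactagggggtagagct
MMP7: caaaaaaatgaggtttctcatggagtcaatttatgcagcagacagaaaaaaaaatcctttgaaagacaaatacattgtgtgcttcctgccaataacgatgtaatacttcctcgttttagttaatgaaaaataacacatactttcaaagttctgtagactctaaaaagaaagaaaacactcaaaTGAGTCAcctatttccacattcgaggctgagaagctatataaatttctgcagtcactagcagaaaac
In both the match starts 67 bases before the start site. The letters were searched on both strands, which for this motif read alike, and 6.6% of all 35116 windows hold them. Of the 12 genes of the list that rose, 6 had a window here and 2 of these held the motif. Of the 10 that did not pass, 6 had a window and 1 held it. Over all genes with a window, it was held by 11.3% of those that rose, 9.3% of those that fell and 7.1% of those measured. The window of MMP8 did not hold these letters. The FOS and JUN genes did not pass the test (changes of -0.51 and -0.06), nor did FOSL1 (0.47) or FOSL2 (0.55). Over passages 7 and 8 the changes were -0.08 and -0.03 for FOS and JUN, while FOSL1 (0.60, adjusted p = 0.038) and FOSL2 (0.69, adjusted p = 0.0186) passed. Of the 26 immediate early genes 2 rose with all arrays, DUSP1 and DUSP5, 8 rose over passages 7 and 8, and none did without either quercetin array. In the DMSO array of passage 6, 24 of the 26 lay above the mean of the other DMSO arrays, by a median of 0.44.

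A minority of the genes of extracellular matrix proteins rose (28.00% against 2.92% of all genes). Of 25 measured, 7 rose, 18 did not pass and none fell, the median change was 0.03, and 7 rose whichever array was left out. CEMIP, which depolymerises hyaluronan, rose from 5.31, 5.41 and 6.39 to 8.82 and 8.90 (change 3.16, SE 0.27, adjusted p = 7.72e-05 in limma). FN1, fibronectin, rose from 4.74, 4.40 and 4.31 to 7.29 and 7.22. The paired chains of basement membrane collagen IV both rose, COL4A1 by 2.40 and COL4A2 by 1.91, and so did chains of collagen VI, COL6A1 by 1.99 and COL6A2 by 1.35. SPP1, osteopontin, was already bright with DMSO (10.53 to 11.23) and rose to 12.54 and 12.82. The fibrillar collagens COL1A1, COL1A2 and COL3A1 had changes of 0.03, -0.04 and 0.04, and POSTN, periostin, one of 0.03. Of 11 fibroblast and epithelial markers 1 rose, PDGFRA, a growth factor receptor, by 1.23 (adjusted p = 0.00446), and 7 were below the array median in all 5 arrays.

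Receptors for matrix rose as well, with 7 of 22 integrins and adhesion molecules higher (31.82% against 2.92% of all genes) and none lower. The count ran from 5 to 8 with any 1 array left out. ITGB3, the β3 integrin that pairs with αV to bind osteopontin and fibronectin, rose from 7.30, 7.75 and 6.02 to 9.49 and 9.56 (change 2.51, SE 0.37, adjusted p = 0.00269 in limma). Its partner ITGAV rose by 0.71. ITGA3, part of a laminin receptor, rose by 2.03, ITGA2, part of a collagen receptor, by 1.51, ITGB5 by 1.10, ITGB1 by 1.03 and ITGAE by 1.21. The leukocyte integrins had changes of 0.20 for ITGAM, 0.42 for ITGAX, 0.05 for ITGB2, -0.51 for ITGAL and -0.62 for ITGA4, none of which passed.

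Within the TGF-β family a few ligands rose, and TGFBR1, TGFBR2 and SMAD3 fell, while 16 of the 23 genes did not pass. TGFB3 had the lowest p of all genes. It went from 4.65, 4.55 and 4.74 to 8.86 and 8.73, a change of 4.15 (SE 0.16, adjusted p = 3.25e-07 in limma) or 17.7-fold, and the arrays within each group lay close together. TGFB2 (0.86), the activin subunit INHBA (1.35) and BMP6 (1.40) rose too, whereas TGFB1, the main ligand of macrophages, had levels of 9.86 to 10.57 and a change of 0.01. Of the receptors, TGFBR1 fell from 8.20, 8.61 and 8.87 to 7.20 and 7.41, and TGFBR2 from 7.94, 8.04 and 8.50 to 7.04 and 6.99. SMAD3, which carries the signal to the nucleus, fell from 7.94, 7.95 and 7.96 to 7.11 and 7.19. In none of these falls did the groups overlap, as in every gene called. The immediate targets ID1, ID2 and ID3 had changes of -0.23, -0.37 and -0.77, SMAD7 one of 0.48 and TGFBI one of 0.05, and none passed. Over the 23 genes measured 4 rose (17.39%) and 3 fell (13.04%). Without the quercetin array of passage 7 no fall was left, and without that of passage 8 there was 1.

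**Figure D3:**
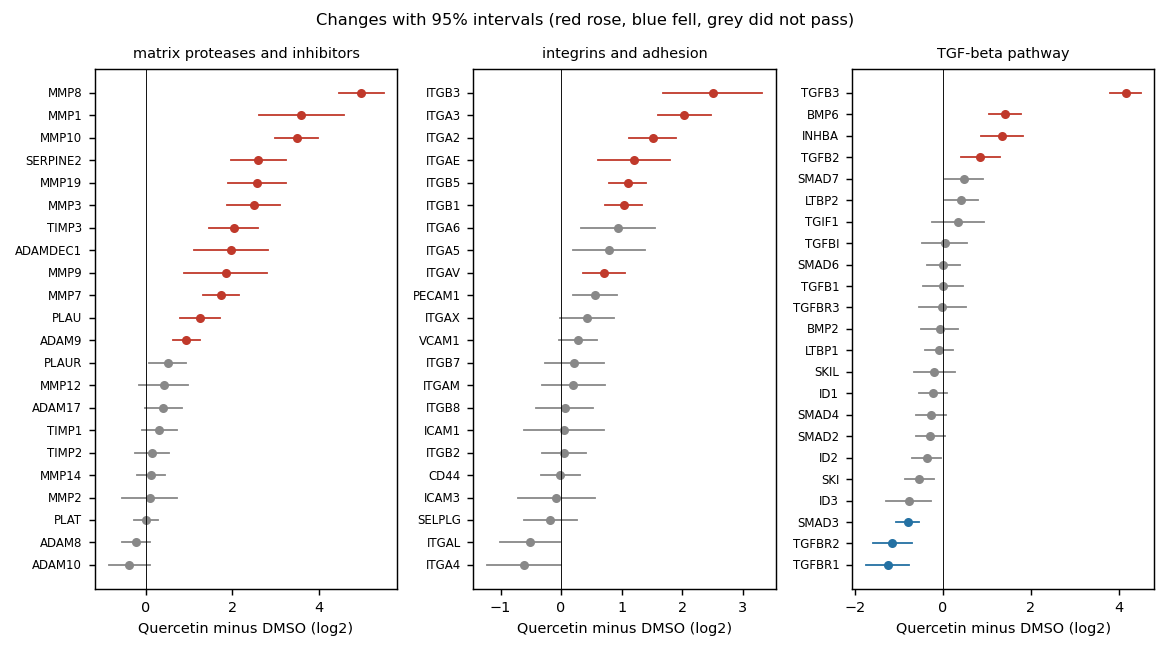
Quercetin minus DMSO (log2, x axis) with 95% intervals of limma for the measured matrix proteases and inhibitors, integrins and adhesion molecules, and TGF-β pathway genes; red genes rose, blue genes fell and grey genes did not pass. Rises fill the upper part of the first panel from MMP8 at 4.99, a size that is uncertain because its DMSO levels are dim, to ADAM9 at 0.93, and in the third panel TGFB3 stands alone at 4.15.

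Several genes of lipid uptake and lipid sensing rose, with 44.44% of the lipid uptake list against 2.92% of all genes. Of 18 scavenger receptors and lipid uptake genes 8 rose and none fell, with a median change of 0.93, and the count was 5 to 9 with any 1 array left out, 5 being without the quercetin array of passage 8. CD36, which takes up oxidized lipoproteins and fatty acids, went from 6.66, 5.54 and 6.29 to 10.09 and 10.20, a change of 3.99 (SE 0.26, adjusted p = 1.45e-05 in limma). MSR1, scavenger receptor A, went from 7.88, 6.73 and 6.45 to 10.45 and 10.69, a change of 3.55 (SE 0.32, adjusted p = 0.000105). OLR1, another receptor for oxidized LDL, rose by 2.53, LPL, lipoprotein lipase, by 2.55, CD163, the receptor for haemoglobin bound to haptoglobin, by 1.85, and LRP1 by 1.36. Of the receptors that did not pass, changes were 0.07 for SCARB1, which takes up cholesterol from HDL, -0.04 for MARCO and -0.16 for STAB1.

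The nuclear receptor NR1H3, which encodes LXRα, had levels of 5.38, 5.43 and 5.67 with DMSO and of 8.44 and 8.48 with quercetin, a change of 2.97 (SE 0.14, adjusted p = 1.34e-06 in limma). Both groups were tight and lay far apart. Its targets were uneven, with 3 of 14 genes of the LXR list higher (21.43%), NR1H3 included. APOE rose by 2.06 and APOC1, its neighbour in the apolipoprotein cluster, by 2.08. The cholesterol exporter ABCA1 had levels of 8.48, 9.40 and 8.99 and then 9.44 and 9.73, so that passage 6 with DMSO was the lowest, and its change of 0.63 did not pass (adjusted p = 0.188). ABCG1 had a change of 1.05 (adjusted p = 0.0504), which passed in passages 7 and 8 alone (change 0.72, adjusted p = 0.0235). SREBF1 had a change of 0.19 and SCD one of 1.20, and neither passed.

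Of 19 genes of PPAR receptors and their targets 6 rose (31.58% against 2.92% of all genes) and none fell, but the median change was 0.05. The receptor PPARG went from 7.16, 6.81 and 6.90 to 7.99 and 7.99, a 2.05-fold rise (change 1.03, SE 0.14, adjusted p = 0.00138 in limma). The other 5 were FABP4, CD36 and LPL, the lipid droplet coat PLIN2 (1.38) and the mitochondrial carrier UCP2 (0.72). Targets known from fasting and fatty acid oxidation did not pass, with changes of 0.31 for PDK4, -0.20 for ANGPTL4, -0.13 for CPT1A and -0.03 for ACADVL. Of 11 genes compiled here from those that the study discusses, with GAPDH, 9 rose, and TRAF1 (-0.48) and GAPDH did not pass. The study came to these genes through arrays of this series that include the same DMSO arrays, so the count is not independent evidence of a direction. Among 17 lipid droplet genes and lipases the lysosomal acid lipase LIPA (1.23) and MGLL (0.93) rose beside PLIN2, and among 27 lysosomal genes the cathepsins CTSC (1.34), CTSL (1.23), CTSH (0.85) and CTSZ (0.69). From 1 to 7 lysosomal genes rose with 1 array left out. In cholesterol synthesis 2 of 17 genes rose (11.76%), SQLE by 1.08 and CYP51A1 by 1.00, and the cholesterol carrier STARD4 rose by 1.18. ACSL5, which activates fatty acids, rose by 1.69.

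Of the inflammatory genes, a few chemokines and interferon-induced genes rose, with 16.67% of the chemokines against 2.92% of all genes. CXCL1, a neutrophil chemoattractant, went from 8.26, 7.83 and 7.46 to 9.85 and 9.71 (change 1.93, SE 0.20, adjusted p = 0.000266 in limma). CCL20 (1.90), CXCL10 (0.96) and CXCL5 (0.81) rose too, CXCL10 from levels below the lower quartile in all 3 DMSO arrays, which made 4 of 24 chemokines, and 1 rose without the quercetin array of passage 8 and 8 without the DMSO array of passage 6. The abundant CXCL8 and CCL3 had changes of 0.33 and 0.44 and CCL2 one of -0.42. Among chemokine receptors CXCR4 rose by 1.86, and CX3CR1, the fractalkine receptor of monocytes, fell from 6.01, 5.60 and 6.66 to 4.57 and 4.61. Of 31 NF-κB inflammatory genes BCL2A1 (1.70) and CD83 (0.83) rose and NFKBIZ (-0.78) fell. These were 6.45% and 3.23% of the list, against 2.92% and 1.08% of all genes. The cytokines IL1B, TNF and IL6 had changes of 0.44, -0.63 and 0.06. For TNF the DMSO array of passage 6 was at 10.15 and the other 4 arrays between 8.17 and 8.33, and over passages 7 and 8 the change was 0.00. In that array 27 of the 31 genes lay above the mean of the other DMSO arrays, by a median of 0.50. Without it 7 genes of the list rose, and without the quercetin array of passage 8 none did.

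Of 27 interferon response genes 5 rose, or 18.52% against 2.92% of all genes. They were IFI44L (1.55), IFI44 (1.41), MX2 (1.04), MX1 (0.97) and OAS3 (0.90). GBP2 (-1.18) and the transcription factor IRF1 (-0.67) fell, or 7.41% against 1.08% of all genes. ISG15 and IFIT3, which are induced in the same response, had changes of 0.19 and 0.12. The count of rises was 1 without either quercetin array and up to 8 without the DMSO array of passage 6. Of 18 genes of Toll-like receptors and their signalling 3 rose, TLR1 (1.60), TLR2 (1.04) and TLR4 (0.74), and the calls of TLR2 and TLR4 were lost without either quercetin array. IRAK3, a brake on their signalling, fell from 6.90, 7.20 and 7.78 to 5.39 and 5.56 (change -1.82, SE 0.23, adjusted p = 0.00086 in limma). Among these 18 genes the rises made up 16.67% and the fall 5.56%. DUSP1, a phosphatase of MAP kinases, rose by 1.66 and is shared by the immediate early and the glucocorticoid lists. The 3 other members of the 13 in the glucocorticoid list that rose were CD163, SGK1 (0.89) and the receptor NR3C1 (0.62), while TSC22D3 and PER1, 2 direct targets of the receptor, had changes of 0.06 and 0.07.

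Fewer genes fell than rose. In leukotriene synthesis ALOX5AP, which presents arachidonic acid to 5-lipoxygenase, fell from 9.99, 9.29 and 10.32 to 7.85 and 7.61 (change -2.14, SE 0.34, adjusted p = 0.00421 in limma). PLA2G4A, the phospholipase that releases arachidonic acid, had a change of -1.30 and the leukotriene receptor CYSLTR1 one of -1.05, and both fell. LTA4H, which makes leukotriene B4, rose by 0.85, and ALOX5 itself had a change of -0.31. Of the 16 eicosanoid genes 3 thus fell (18.75%) and 1 rose (6.25%), and the median change was 0.06. The calls of PLA2G4A, CYSLTR1 and LTA4H were lost without either quercetin array and that of ALOX5AP without that of passage 8, where no fall was left. S100A4, a calcium-binding protein linked to cell movement, went from 8.37, 8.24 and 8.54 to 6.25 and 6.53, and P2RY8, a G protein-coupled receptor, from 6.00, 6.28 and 6.94 to 4.78 and 4.95. The lipid phosphatase INPP5D (SHIP1) of the PI3K pathway (-1.26), the phagocyte oxidase subunit NCF4 (-1.07) and the transporter ABCA5 (-1.62) fell too. The inhibitory Fc receptor FCGR2B fell by 1.36 (adjusted p = 0.0453), a call that was lost over passages 7 and 8 (adjusted p = 0.0779).

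Of 22 histone genes measured, 5 fell (22.73% against 1.08% of all genes) and none rose. A change below 0 was found in 21, with a median of -0.44. H2BC21 went from 8.17, 8.18 and 7.86 to 6.93 and 6.68 (change -1.27, SE 0.16, adjusted p = 0.000786 in limma). H2AC20 (-1.14), H2BC5 (-1.08), H2BC4 (-1.07) and H2AC6 (-0.87) fell as well. The call of H2AC20 was lost over passages 7 and 8 (adjusted p = 0.0516) and with passage as a block (adjusted p = 0.054). From 1 to 6 histone genes fell with any 1 array left out, and the count was 1 without either quercetin array. H2AX and the variant H2AZ1 had changes of -0.03 and 0.68. None of 35 genes of cell cycle and DNA replication passed in either direction, and their median change was 0.07. Histone genes resemble each other, and the array may not separate neighbouring copies. Of 21 small nuclear and nucleolar RNAs listed, 1 fell, SCARNA10 (-1.38), 20 did not pass, and the median change was -0.09. Outside the list SNORA62, which fell from 11.93, 11.88 and 11.74 to 9.93 and 9.60, and SCARNA5 (-1.47) were among the 10 largest falls. The call of SNORA62 was lost without the quercetin array of passage 8, and that of SCARNA5 without either quercetin array.

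Among 189 genes of microRNAs measured, 1 rose and 1 fell (0.529% each, below the 2.92% and 1.08% of all genes). They were looked up after their values had been seen. MIR223, the gene of a microRNA abundant in myeloid cells, went from 4.94, 4.60 and 4.80 to 3.80 and 3.85 (change -0.95, SE 0.14, adjusted p = 0.00273 in limma). MIR29A, whose product is known to bind collagen mRNAs, went from 3.55, 3.71 and 3.28 to 4.69 and 4.79 (change 1.23, SE 0.29, adjusted p = 0.038), with 2 of its DMSO arrays below the lower quartile. The mature 3′ arms are shown to tell the 2 genes apart, with the seed, bases 2 to 8, in capitals. They are from RefSeq (GRCh38.p14), chrX:66018937-66018958 on the plus strand and chr7:130876748-130876769 on the minus strand.
hsa-miR-223-3p: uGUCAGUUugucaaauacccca
hsa-miR-29a-3p: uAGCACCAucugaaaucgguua
The seeds differ, and the array reads the gene and not the mature arm.

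Of 28 NRF2 targets 3 rose and none fell (10.71% against 2.92% of all genes), and the median change was 0.00. Without either quercetin array 1 rose, and without the DMSO array of passage 6 or that of passage 7 4 did. SLC7A11, the cystine carrier of glutathione synthesis, rose by 1.67, the conjugate exporter ABCC3 by 1.42 and HMOX1, which breaks down haem, by 1.07. HMOX1 had levels of 7.41, 7.21 and 6.74 with DMSO and 8.21 and 8.16 with quercetin. NFE2L2 itself had a change of -0.01, and GCLM, TXNRD1 and SRXN1, all well-known NRF2 targets, had changes of 0.19, 0.31 and -0.26. None of 15 other antioxidant enzymes passed. CAT, catalase, had the largest change among these, -0.68 (adjusted p = 0.221), and was at 6.92 to 7.62 with DMSO and 6.42 and 6.70 with quercetin. Of 16 metallothioneins and zinc transporters 1 passed, the zinc and iron importer SLC39A14 with a rise of 1.25, and MT2A had a change of -0.07. In transport and conjugation of flavonols, the organic anion carriers SLCO4A1 (1.73) and SLCO2B1 (1.46) and GSTO1 (0.89) rose among 16 genes.

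Of the 50 lists with measured genes, 37 held at least 1 rise and 13 at least 1 fall, over 856 distinct genes. Since 2.92% of all genes rose and 1.08% fell, some lists would hold a call at these shares alone. The number of such lists was not computed. In 8 lists no gene passed, among them heat shock chaperones (18 genes), cytosolic ribosomal proteins (36 genes) and MHC class II genes (8 genes). GAPDH, often used as a reference, had levels of 11.39 to 11.80 on the 5 arrays and a change of 0.08. The survival gene BCL2 rose by 1.08, and the stress cytokine GDF15 by 1.92 from DMSO levels that ran from 8.05 to 9.96. In the unfolded protein response the sensor ERN1 (0.87) and DNAJB9 (1.05) rose, and the median change of its 19 genes was 0.52, with 0 to 6 rises when 1 array was left out. In the hypoxia and glycolysis list 1 of 33 genes rose, ADM (0.83), and 1 fell, PFKP (-0.91), or 3.03% each against 2.92% and 1.08% of all genes. Neither call held without either quercetin array or without the DMSO array of passage 8, and that of ADM was also lost with passage as a block (adjusted p = 0.0691). Of the 7 lists of marker genes, 1 gene rose in that of T and NK cells, NCAM1 by 1.61, and 1 in that of erythroid and megakaryocyte cells, the platelet chemokine PPBP by 2.01, with 2 of its DMSO arrays below the lower quartile. No marker of B cells, neutrophils or endothelium passed. Of the 18 macrophage and monocyte markers 4 rose, CD163, CD68, CEBPB and MSR1, and 2 did without either quercetin array. None of these 18 markers fell at the threshold, but 5 had a change below 0, the lowest of -1.42, which did not pass. The summed level of a list (log2 of the sum of its intensities) was higher with quercetin, without overlap, for 5 of the 7 lists. How often the sums of other gene sets separate in this way on these arrays was not counted. It was 13.77 to 14.06 with DMSO and 14.39 to 14.48 with quercetin for macrophage markers and 7.81 to 7.92 and 8.15 to 8.18 for T- and NK-cell markers. For endothelial markers it was 9.38 to 9.71 and 9.86 to 10.11, for fibroblast and epithelial markers at most 8.78 and at least 8.90, and for erythroid and megakaryocyte markers 7.47 to 7.67 and 7.71 to 7.85. By single members, the median change was 0.33 for macrophage markers, 0.05 for T and NK cells and 0.04 for endothelium. It was -0.04 for fibroblast and epithelial markers and -0.07 for erythroid and megakaryocyte markers. A sum is carried by its brightest members, so it does not show that a list rose as a whole. The sums of B-cell and neutrophil markers overlapped between the groups. The part of these levels in other changes was not tested.

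**Figure D4:**
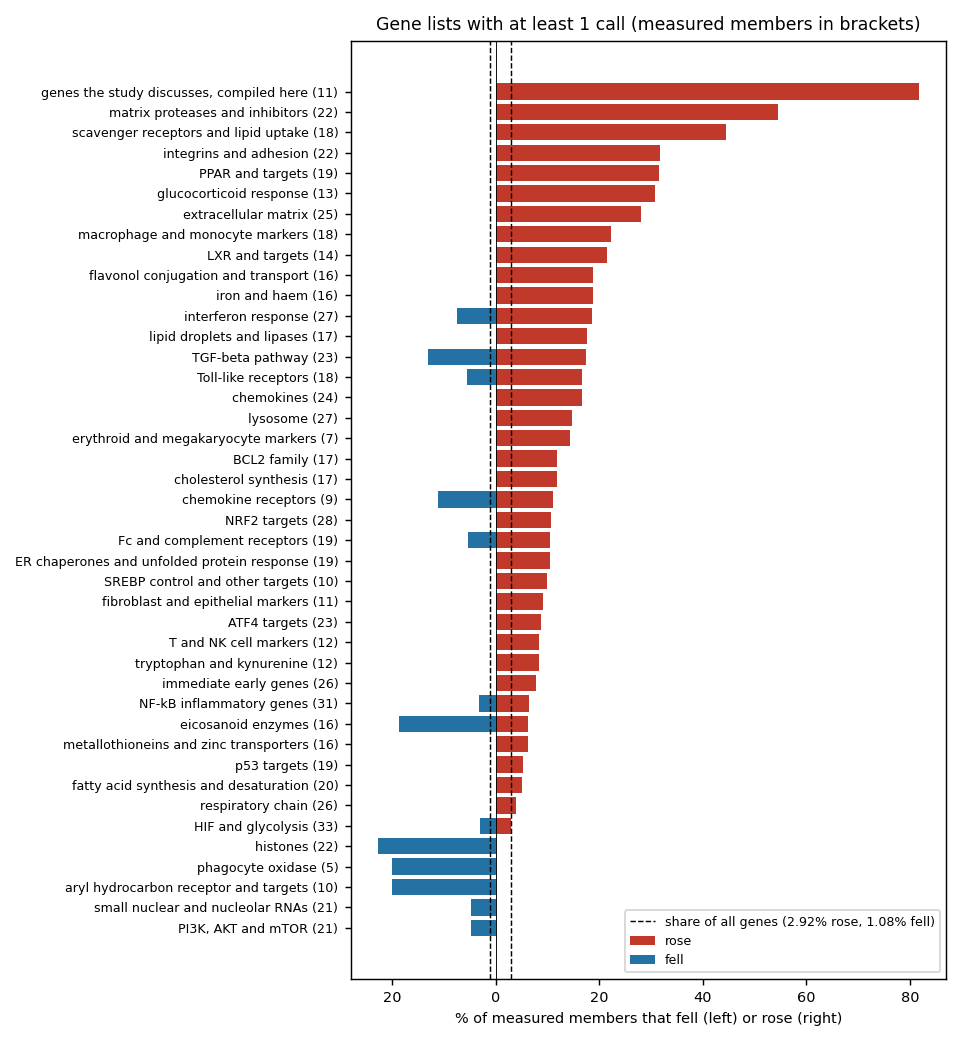
Share of the measured members that rose (red, to the right) or fell (blue, to the left) in the 42 lists with at least 1 call, in percent, with the number measured in brackets and dashed lines at the shares over all 18417 genes (2.92% and 1.08%). Matrix proteases (12 of 22) and scavenger receptors (8 of 18) have the longest red bars apart from the genes compiled from the study's text, and histones (5 of 22) have the longest blue bar.

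The certainty of single calls depended on the 2 quercetin arrays. Genes named by rule were largely picked for a large change or a small p on these arrays, which favours a kept call. Their share below therefore does not stand for all genes called. Of the 113 genes named by rule, 96 had passed, and 47 of these kept their call whichever of the 5 arrays was left out. These include FABP4, TDO2, MMP1, MMP8, MMP10, TGFB3, CD36, MSR1, NR1H3, LPL, CYP1B1, TIPARP and S100A4. Among the 49 that lost it in at least 1 of these fits were ALOX5AP, P2RY8, HMOX1, CCL20, TLR2, TLR4, APOE and CX3CR1.

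How far these changes were particular to quercetin was examined against the other 2 compounds, in the same fit. Myricetin is a flavonol with an additional hydroxyl group on the B ring of quercetin, and punicalagin is a large ellagitannin of pomegranate. All 3 compounds were given for 24 h, but without doses in the labels a difference in compound and a difference in dose cannot be told apart. Against myricetin, 235 genes were higher and 93 lower with quercetin (1.28% and 0.505%). Against punicalagin, 354 were higher and 397 lower (1.92% and 2.16%). With passage as a block the count of genes lower than with myricetin was 175. With 1 array of either group left out, 43 to 54 genes were higher and 6 to 9 lower than with myricetin, and 39 to 319 higher and 22 to 461 lower than with punicalagin, with the fewest without the quercetin array of passage 7 in the latter.

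CYP1B1 was lower with quercetin than with either compound, with a difference of -2.04 from myricetin (95% interval of the difference -2.47 to -1.61, adjusted p = 0.000636 in limma) and of -2.46 from punicalagin (-2.85 to -2.07, adjusted p = 0.000109). Its levels were 8.29 and 8.39 with myricetin and 8.55 to 8.99 with punicalagin. TIPARP, the other receptor target that fell against DMSO, was lower than with myricetin (-1.54, adjusted p = 0.00529) and punicalagin (-1.20, adjusted p = 0.00787). TGFB3 was higher by 3.07 than with myricetin (2.69 to 3.44, adjusted p = 2.55e-05) and by 2.73 than with punicalagin (2.39 to 3.07, adjusted p = 3.34e-05), where its levels lay between 5.62 and 6.24. MMP10 was at 4.53 and 4.67 with myricetin and 4.98 to 5.15 with punicalagin, within the range of the DMSO arrays, and was higher with quercetin by 3.83 and 3.35. MMP8 was higher by 3.36 and 3.37, NR1H3 by 1.84 and 1.81 and CXCL1 by 2.24 and 1.95. Against DMSO, TGFB3 rose with myricetin and punicalagin too (1.08 and 1.42), as did MMP8 (1.63 and 1.62) and NR1H3 (1.13 and 1.16). PALLD, an actin-associated protein, and PBX4, a homeodomain factor, were higher than with myricetin by 2.08 and 1.72.

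S100A4 was also lower with quercetin (differences of -2.20 from myricetin and -2.67 from punicalagin), as was P2RY8 (-2.19 and -2.54). Some of the lower genes had not fallen against DMSO. ADGRD1, an adhesion receptor, was at 4.72 and 5.05 with quercetin, 5.31 to 6.26 with DMSO and 6.89 to 7.18 with the other compounds. KCNMA1, a calcium-activated potassium channel, was at 4.60 and 4.85 with quercetin, 4.52 to 4.58 with DMSO and 5.68 to 6.23 with the others. The heparan sulfate proteoglycan GPC4 was at 7.16 and 7.58 with quercetin, 8.10 and 8.29 with myricetin and 9.60 to 10.02 with punicalagin, and the difference from punicalagin was -2.44 (adjusted p = 0.000214).

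For the lipid uptake genes no difference between the compounds passed in most cases. CD36 differed from myricetin by 0.53 (95% interval -0.08 to 1.15, adjusted p = 0.477 in limma) and from punicalagin by -0.34 (-0.90 to 0.23, adjusted p = 0.618). For MSR1 the differences were 0.24 (-0.53 to 1.01) and -0.49 (-1.19 to 0.21), and for PPARG 0.05 (-0.28 to 0.39) and -0.22 (-0.52 to 0.08). CEMIP, of the matrix list, differed by 0.08 (-0.56 to 0.73) and -0.28 (-0.86 to 0.31), and PLIN2 by 0.04 (-0.33 to 0.40) and 0.12 (-0.21 to 0.45). The intervals of CD36, MSR1 and CEMIP are wide and leave room for differences either way. For LPL the differences were 0.60 (-0.09 to 1.30) from myricetin and -0.76 (-1.39 to -0.13) from punicalagin. Neither passed (adjusted p = 0.474 and 0.206 in limma). Of the 18 genes of the lipid uptake list, 1 was higher with quercetin than with myricetin and 2 were lower than with punicalagin. LRP1 was among the latter, by a difference of -0.93 (interval -1.29 to -0.58, adjusted p = 0.00963 in limma). FABP4 was at 8.51 to 9.10 with the other compounds, and its differences of 1.95 and 1.66 did not pass (adjusted p = 0.152 and 0.144), nor did those of TDO2 of 1.96 and 1.58 (adjusted p = 0.0926 and 0.103).

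**Figure D5:**
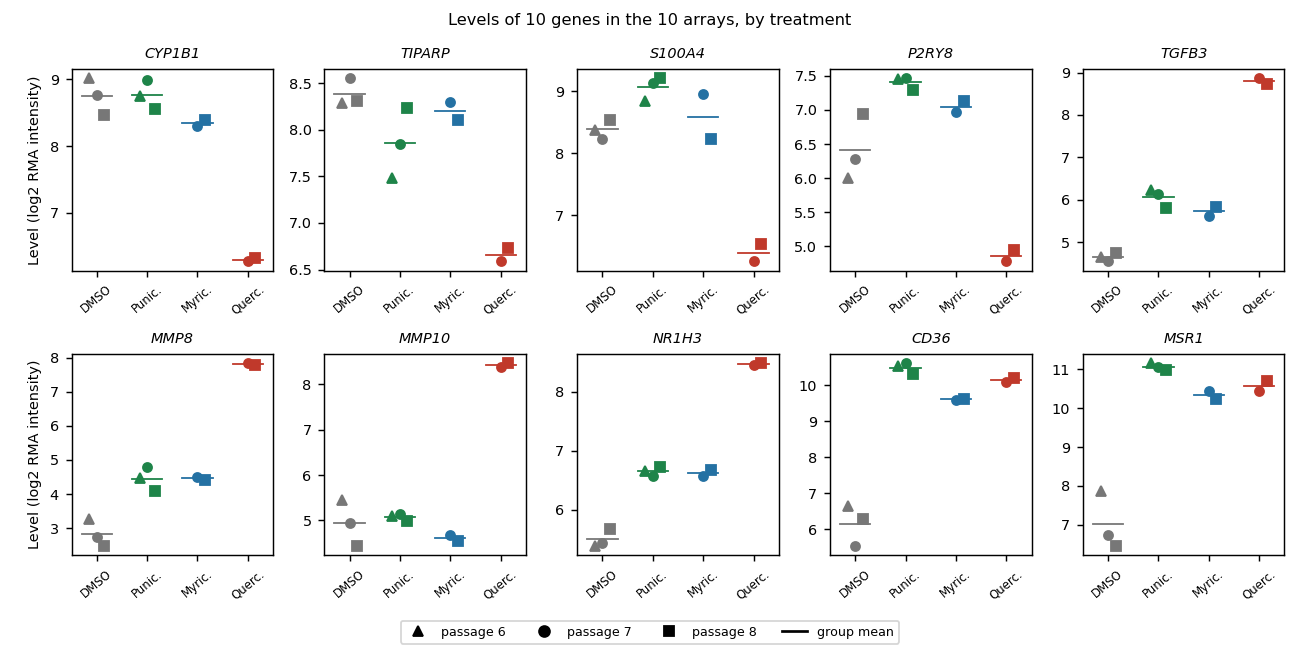
Levels (log2 RMA intensity) of 10 genes in the 10 arrays by treatment, with the shape giving the passage and a line at each group mean; each panel has its own y axis, which does not start at 0. CYP1B1, TIPARP, S100A4 and P2RY8 are lowest and TGFB3, MMP8, MMP10 and NR1H3 highest in the 2 quercetin arrays. TGFB3, MMP8 and NR1H3 are raised to a smaller extent with the other compounds too, and CD36 and MSR1 are raised with all 3.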

How the data were processed

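RNA of THP-1 macrophages was hybridised to Human Gene 1.0 ST arrays of Affymetrix. The authors turned the scans into log2 values by RMA (background correction, quantile normalization, probe summary), 1 value for each transcript cluster and array. Expression Console and Partek 7.0 appear in the submitters' processing notes. The sources used here do not give the genome build of the probes or say if all 10 arrays were normalized in 1 run. Of 33297 clusters, 21214 carry a symbol and were tested without a filter. A gene is the cluster with a single symbol and the highest mean over 10 arrays (18417 genes).

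Groups were fitted on all 10 arrays with limma 3.58.1 in R 4.3.3 (lmFit, eBayes, 1 spread shared by the 4 treatments) and adjusted by Benjamini-Hochberg over the clusters tested with a threshold of 0.05. The fit for passages 7 and 8 used their 8 arrays. P-values measure the spread between these arrays, whose number limits precision. The comparison, its gene lists (51 written, 1 with no measured gene) and the rule for named genes were chosen with earlier results of these data known. The rule took the 15 largest rises and 10 largest falls with the same sign in both passage pairs, up to 3 called members of each list or the 1 largest, the 5 smallest p in each direction against myricetin and punicalagin, and genes the study discusses. Genes named beyond it are members of the lists or were chosen after their values were seen. The fit was tested on simulated data. Same-passage arrays of quercetin and DMSO deviated together little (correlations of 0.033 and 0.002), so passage was a block only in an alternative. Promoter and microRNA sequences are from RefSeq. The alternatives were a block for passage, other sets of arrays or clusters, other variance models, array weights, added quantile normalization, the methods' t-test and leaving out each array.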

Additional observations from a re-analysis of the deposited data

Results flagged for a closer look

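Of the 12083 clusters that carry no gene symbol, and which the comparison of genes did not use, 65 passed the threshold in limma when all clusters were tested together (0.538%), 45 of them higher and 20 lower with quercetin. Their identity is not given in the probe table used here, and no test of what they measure was made.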

How the results depend on the processing

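Counts of genes depended on the settings, and no named gene that had passed changed direction in any of them. Against 538 genes higher and 199 lower than with DMSO, the 5 arrays of the 2 groups alone gave 282 and 60, array weights 1246 and 987, testing every cluster 359 and 91, and the replicate block (passage) 565 and 329. The methods' t-test gave 286 and 55 at an unadjusted p under 0.05 with over 2-fold change, but 0 and 0 after Benjamini-Hochberg, where limma had 2790 genes at an unadjusted p under 0.05. Leaving out 1 array gave 196 to 800 higher and 25 to 633 lower, with the fewest without a quercetin array and the most without the DMSO array of passage 6. For passages 7 and 8 (772 and 639), testing every cluster gave 419 and 251, and leaving out 1 array gave 250 to 534 and 90 to 415. Against myricetin (235 and 93), the replicate block gave 344 and 175, and leaving out 1 array gave 43 to 54 and 6 to 9. Against punicalagin (354 and 397) leaving out 1 array gave 39 to 319 and 22 to 461. Arrays of the same passage shared little (correlations of 0.033 and 0.002 for quercetin and DMSO), so that the block is no evidence of pairing. Direction changed only in genes that had not passed. CYP1A1 (-0.14) was at 0.013 with the block, 0.034 with array weights and -0.29 to 0.11 with 1 array left out. MT2A (-0.07) was at 0.14 with the block, 0.10 with array weights and -0.28 to 0.19 with 1 array left out. Among the 113 named genes 33 lost their call with the 5 arrays alone and 25 with every cluster tested. Dim genes are limited by signal over background, since RMA values have no detection call here. The causes were not tested.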

Other observations

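Genes that rose often lay beside each other on the chromosome. Of 538 risen genes that could be ordered along the RefSeq annotation (GRCh38.p14, used for order only), 140 had a risen gene as next measured neighbour (26.0%), whereas 5.61% of all 18392 ordered genes had one. Among the genes that fell it was 18 of 198 (9.1%), against 2.10% of all genes.

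The longest runs of risen neighbours had 4 genes. In that of chromosome 11 all were metalloproteinases, MMP8, MMP10, MMP1 and MMP3. That of chromosome 4 was SPARCL1, DSPP, DMP1 and IBSP, genes of secreted proteins that apart from SPARCL1 are known from bone and tooth matrix, and SPP1, which also rose, belongs to the same family. SPARCL1 went from 4.73, 4.71 and 3.87 in the DMSO arrays of passages 6, 7 and 8 to 6.90 and 7.02 with quercetin, a change of 2.52 (adjusted p = 0.000131 in limma). DMP1 went from 4.19, 4.04 and 3.81 to 6.25 and 6.21, a change of 2.22 (adjusted p = 9.24e-05). DSPP, at 3.30, 3.16 and 3.03 with DMSO, below the lower quartile of those arrays, was at 5.77 and 5.71 with quercetin, and IBSP went from 3.81, 3.44 and 3.59 to 4.92 and 5.44. On chromosome 7, STEAP1 changed by 2.27, STEAP2 by 0.68 and CFAP69 by 0.75. STEAP1 and CFAP69 were below the lower quartile in all 3 DMSO arrays. On chromosome 21, KCNE1 changed by 2.07, RCAN1 by 1.91 and CLIC6 by 0.78. RCAN1, a calcineurin inhibitor, was at 6.37 to 6.62 with DMSO and at 8.32 and 8.51 with quercetin. These runs were found after the values had been seen and are a description.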
